A study of Rattus norvegicus with 28 samples.

Results

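Somatostatin and its receptors were followed on custom oligonucleotide arrays of pain-related regions of the rat nervous system. Of 228 features on the array, 6 were annotated to 4 genes of this system: Sst feature 210, Sstr1 features 1 and 212, Sstr2 features 201 and 213, and Sstr5 feature 216. Every feature annotated to these genes was taken, whatever its values. The array also held features named Sstr3, Sstr4 and SSTR, which were not counted as members and are described at the end. On postnatal day 3, rat pups had received 1 plantar injection in the left hindpaw, either 0.25% carrageenan in 0.9% saline (1 µl/g) or saline, and the males were raised to day 59. Carrageenan is a seaweed polysaccharide that inflames the injected tissue. The 28 arrays comprised 5 of PAG after carrageenan, 5 of PAG after saline, 5 of RVM after carrageenan, 4 of RVM after saline, and 5 of the left and 4 of the right lumbar dorsal horn (LDH) after carrageenan. PAG and RVM are the usual abbreviations of the periaqueductal grey of the midbrain and the rostral ventromedial medulla, which control pain through pathways that descend to the dorsal horn. On every array RNA of an uninjected rat, from the matching region, was hybridised beside that of the injected animal. The carrageenan animals therefore also differed from these controls by the needle and the vehicle, which the saline groups share, and the dorsal horn has no saline group here.

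Somatostatin is a small peptide transmitter and hormone, cut from the precursor encoded by Sst. In the forebrain it is made mostly by inhibitory interneurons, in the spinal dorsal horn largely by excitatory interneurons, and also by some sensory neurons. Its receptors, among them those encoded by Sstr1, Sstr2 and Sstr5, couple to Gi/o proteins, which lower cyclic AMP, open potassium channels and close calcium channels. In the dorsal horn and the brain stem the peptide is known mainly for slowing neuronal firing and for effects on nociception.

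In the rat genome, Sst and Sstr2 share a sequence element near their starts, shown because the gene of the ligand and that of a receptor both hold it. In windows of 300 bases, 250 before and 50 from the annotated start (RefSeq, GRCr8), each holds the cyclic AMP response element TGACGTCA, which reads the same on both strands. Of 33469 such windows 1.83% hold it. Of the 111 genes of the array with a window 4 hold it (3.60%), namely Il6, Sst, Sstr2 and Vgf, and those of Sstr1 and Sstr5 do not. The stretches of 30 bases around it, on the plus strand with the element in capitals, are as follows.
Sst, chr11:90461537-90461566: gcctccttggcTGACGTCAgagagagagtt
Sstr2, chr10:99163269-99163298: ccaagctgccgTGACGTCAcgggtgggggc
In Sst the element begins 2 bases after the annotated first base, and in Sstr2 it lies 73 to 66 bases before it. These positions hold for the RefSeq starts, which were not checked against measured starts of transcription. The Sst element is the one from which binding of the factor CREB was first characterised. A match of letters is no measurement of binding, and the arrays hold none.

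The values are log2 ratios of the injected over the uninjected animal, so that 1 stands for a doubling and 0 for no difference. This direction is the likely one, because the injected animal was always channel 1, but the deposited table does not state it. An exact 0 (55.9% of 6384 values) was taken as not measured. The labels do not tie each array to an animal of its own, and the spread behind each p-value is that of arrays and could be technical. The arrays measured between 7 and 195 features, and array medians lay between -0.061 and 0.083. Because each value is a ratio, the arrays give no level of a gene, and the labelled regions could not be checked against marker levels. Of the marker lists, those for astrocytes, microglia, oligodendrocytes and glutamate neurons had 0 features. Fewer cells of a type and less RNA per cell cannot be told apart in these tissue samples.

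How often each member was measured set what could be compared. Sstr2 feature 213 had a ratio on 27 of 28 arrays, Sst on 22, Sstr2 feature 201 on 19, Sstr1 feature 212 on 16, Sstr5 on 13 and Sstr1 feature 1 on 8. The median feature of the array had a ratio on 10.5 arrays. Sstr2 feature 213 was thus among the most often measured features, with 0.88% of features measured on more arrays, whereas 61.4% were measured on more arrays than Sstr1 feature 1. Sstr5 was measured on 3 of 5 arrays after carrageenan but on 1 of 5 after saline in PAG. Sstr1 feature 1 was measured on 4 of 5 PAG carrageenan arrays and on 0 of 5 PAG saline arrays. The arrays themselves differed in the same way, with a median of 157 measured features per PAG carrageenan array and 92 per PAG saline array, and the part of this in the members' counts was not tested. In RVM the median was 72 features after carrageenan and 143.5 after saline.

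Sst and Sstr2 feature 213 were also among the steadiest features. Over 105 features measured on at least 12 arrays, the median SD across arrays was 0.88. Sst had an SD of 0.29 over 22 arrays, and 7 of the 105 features had a smaller one. Sstr2 feature 213 had an SD of 0.35 over 27 arrays, with 8 smaller. The SD was 0.58 for Sstr2 feature 201, 0.59 for Sstr5 and 1.62 for Sstr1 feature 212, which varied more than 81.9% of these features did. A ratio beyond 1 in size was recorded on 1 of 22 arrays for Sst, 1 of 27 for Sstr2 feature 213 and 8 of 16 for Sstr1 feature 212.

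**Figure D1:**
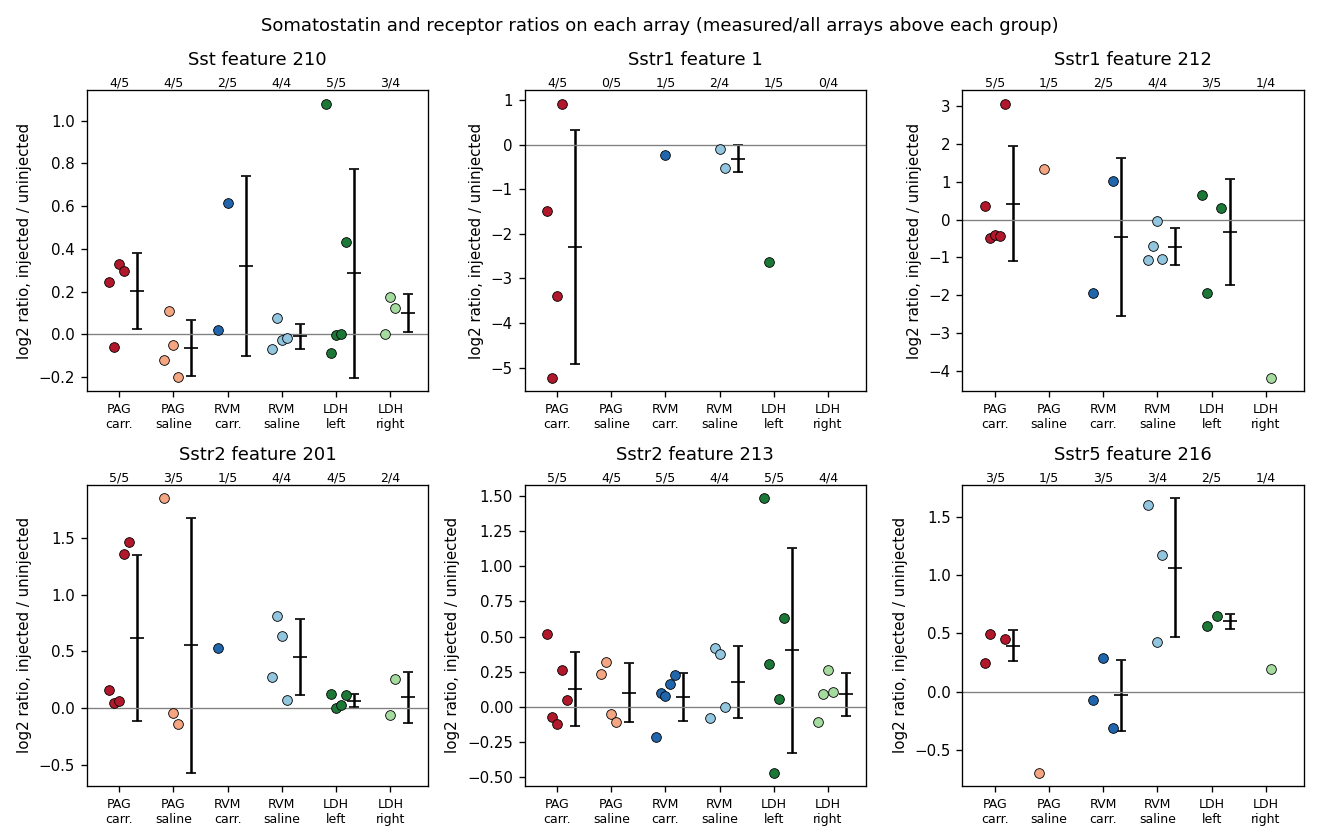
Log2 ratio (injected over uninjected, y axis) of each member on every array that measured it, by group; black bars are the mean ± SD where at least 2 arrays had a value, and the fractions above give measured over all arrays. Sst and Sstr2 feature 213 stay within 0.63 of 0 except on LDH left array 1 (1.08 and 1.48), while Sstr1 feature 1 reaches -5.23 in PAG after carrageenan. The y axes differ between panels.

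No member passed the test in any comparison. Feature 210 of the ligand gene Sst showed mostly small ratios, the largest being 1.08 on LDH left array 1. After carrageenan most of them were above 0. In PAG, Sst had ratios of 0.25, -0.06, 0.33 and 0.30 on carrageenan arrays 1 to 4, against -0.12, 0.11, -0.05 and -0.20 on saline arrays 1 to 4. It was above 0 on 3 of 4 carrageenan arrays and below 0 on 3 of 4 saline arrays, and the groups overlapped, as they did for all but 3.85% of the features tested. Sst averaged 0.20 ± 0.18 after carrageenan and -0.06 ± 0.13 after saline (SD, n = 4 each), a difference of 0.27 by limma (95% interval -0.07 to 0.60, adjusted p = 0.432). The exact two-sided permutation p was 0.0857, where 0.0286 is the smallest possible. In this comparison 0 of 78 features passed an adjusted p of 0.05 (a share of 0%), while 12.8% had an unadjusted p below 0.05 by limma. The unadjusted p of Sst was 0.103 by limma. Without PAG carrageenan array 2, its single array below 0 after carrageenan, the difference was 0.35 and the adjusted p 0.341 by limma.

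In RVM, Sst had a ratio of 0.02 on carrageenan array 1 and 0.62 on carrageenan array 3, and none on the other 3. RVM saline arrays 1 to 4 gave -0.07, 0.08, -0.03 and -0.02, a spread of only 0.06 (SD, n = 4). With at least 2 in place of at least 3 measured arrays required in a group, the difference was 0.33 by limma (95% interval -0.31 to 0.97, adjusted p = 0.824). The interaction, that is the PAG difference minus the RVM difference, was -0.06 for Sst under that setting (95% interval -0.63 to 0.51).

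In the dorsal horn Sst had ratios of 1.08, -0.09, -0.001, 0.002 and 0.43 on the left, the side of the injected paw. On the right it had 0.002, 0.17 and 0.13 on arrays 2 to 4. Arrays 1 and 5 of the left were high and the other 3 lay close to 0, so the groups overlapped, as in all but 3.45% of features. The left side exceeded the right by 0.18 by limma (95% interval -0.52 to 0.89, adjusted p = 0.854), but without LDH left array 1 the difference was -0.014. That array was wide as a whole. Apart from the members, 51.5% of its features lay beyond 1 in size and their SD was 2.06, and its Sst value exceeded 74% of its measured features. Of 29 features tested between sides, 0 passed the adjusted threshold (0%) and 0% had an unadjusted p below 0.05.

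Set in order, the group means of Sst were 0.32 in RVM carrageenan (n = 2), 0.29 in LDH left (n = 5), 0.20 in PAG carrageenan (n = 4), 0.10 in LDH right (n = 3), -0.01 in RVM saline (n = 4) and -0.06 in PAG saline (n = 4). Each neighbouring pair in this order overlapped in its values. The place of LDH left depends on array 1: without it the mean was 0.09 ± 0.23 (SD, n = 4), below that of LDH right, and the median of all 5 arrays was 0.002. The 4 carrageenan groups had means above 0 and both saline groups had means below 0. That arrangement, picked after the values were seen, was shared by 2 of the 54 features with at least 2 measured arrays in every group (3.7%), and the opposite arrangement by 0 of 54 (0%). Counted by array, Sst was above 0 on 11 of 14 measured arrays of the carrageenan groups and on 2 of 8 of the saline groups. The carrageenan count includes LDH, which has no saline group, with 3 of 5 on the left and 3 of 3 on the right. In PAG it was 3 of 4 after carrageenan against 1 of 4 after saline, and in RVM 2 of 2 against 1 of 4. These counts include values very close to 0, among them 0.002 on LDH left array 4 and on LDH right array 2, and -0.001 on LDH left array 3. Over all features the share above 0 was 51.5% in the carrageenan groups and 49.2% in the saline groups. Against the uninjected controls Sst did not pass in any of the 4 groups in which it was tested. The smallest adjusted p by limma was 0.21, in PAG carrageenan, where 14.1% of 78 features passed. The share that passed was 0% in PAG saline and on both sides of LDH.

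Sstr2 encodes the somatostatin receptor that clinical analogues of the peptide bind best. Its feature 213 was measured on the most arrays of all members, and its groups overlapped in every comparison made. In PAG it had ratios of 0.52, -0.07, -0.12, 0.26 and 0.05 after carrageenan and 0.24, 0.32, -0.05 and -0.11 on saline arrays 1 to 4. In RVM it had -0.21, 0.10, 0.08, 0.17 and 0.23 after carrageenan and -0.08, 0.42, 0.38 and 0.001 after saline. Both pairs of groups overlapped over most of their range. The difference was 0.03 in PAG (95% interval -0.37 to 0.42, adjusted p = 0.942 by limma). In RVM it was -0.11 (95% interval -0.46 to 0.25, adjusted p = 0.85 by limma). There 0 of 56 features passed (0%). Against uninjected controls feature 213 averaged 0.07 ± 0.17 in RVM after carrageenan (SD, n = 5), where 1.79% of features passed, and 0.18 ± 0.26 after saline (SD, n = 4).

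Feature 213 was the single member for which the regions could be set against each other with the settings used. PAG minus RVM was 0.06 after carrageenan (95% interval -0.27 to 0.38). It was -0.08 after saline (95% interval -0.44 to 0.28). The interaction of region and carrageenan was 0.13 (95% interval -0.35 to 0.62). In these 3 comparisons 0 of 48 features passed by limma (0% each), and the adjusted p-values of feature 213 were 0.901, 0.978 and 0.797.

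In the dorsal horn feature 213 had ratios of 1.48, 0.31, -0.47, 0.05 and 0.63 on the left and -0.11, 0.09, 0.26 and 0.11 on the right. The left values enclosed the right ones, with an SD of 0.73 (n = 5) on the left and 0.15 (n = 4) on the right. The left exceeded the right by 0.31 by limma (95% interval -0.51 to 1.13, adjusted p = 0.854). The difference was 0.25 without LDH right array 1, which measured only 7 features, and 0.04 without LDH left array 1. LDH left array 1 also held the highest value of Sst.

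The other Sstr2 feature, 201, gave other values. In PAG it had 0.16, 0.05, 0.06, 1.36 and 1.47 after carrageenan, against 1.85, -0.05 and -0.14 on saline arrays 1, 3 and 4. It was above 0 on 5 of 5 carrageenan arrays. In that group 37.2% of the features tested had all their measured arrays on 1 side of 0. The PAG means were 0.62 ± 0.73 after carrageenan (SD, n = 5) and 0.56 ± 1.12 after saline (n = 3), and the difference of 0.06 had a 95% interval of -1.32 to 1.45 by limma. In RVM it had 0.53 on the single measured carrageenan array and 0.28, 0.81, 0.64 and 0.07 on saline arrays 1 to 4, all above 0. Of the 56 features with at least 3 measured arrays in both RVM groups, 37.5% had all their RVM saline arrays on 1 side of 0. With RVM saline fitted alone, the mean of 0.45 had a 95% interval of -0.06 to 0.96 (adjusted p = 0.261 by limma). In LDH it had 0.12, 0.003, 0.03 and 0.11 on left arrays 2 to 5 and -0.06 and 0.26 on right arrays 3 and 4. Over all groups it was above 0 on 16 of 19 arrays, against 19 of 27 for feature 213, and the difference was not tested. With the ratio turned the other way, feature 201 would be below 0 on those 16.

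Sstr5 encodes a receptor that is best known for restraining hormone release in the pituitary and the pancreas. It gave the smallest p among the members. RVM carrageenan arrays 1, 3 and 5 had ratios of -0.07, 0.29 and -0.31, against 1.60, 0.42 and 1.17 on RVM saline arrays 1, 3 and 4. Every carrageenan value lay below every saline value. Groups without overlap were found for 3.57% of the 56 features tested, Sstr5 among them. The difference was -1.10 by limma (95% interval -2.01 to -0.18), with an unadjusted p of 0.0275 and an adjusted p of 0.465, so it did not pass. In this comparison 7.14% of features had an unadjusted p below 0.05. The exact two-sided permutation p was 0.1, the smallest that 3 against 3 arrays allow.

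Of these groups the saline one lay farther from 0. Against uninjected controls Sstr5 averaged -0.03 ± 0.30 in RVM after carrageenan and 1.06 ± 0.59 after saline (SD, n = 3 each). The second mean corresponds to a ratio of 2.09 of injected over uninjected. By limma its 95% interval was 0.41 to 1.71, with an unadjusted p of 0.00813 and an adjusted p of 0.0759. In RVM saline 5.36% of features passed, 23.2% had an unadjusted p below 0.05, and 37.5% had all their measured arrays on 1 side of 0, as Sstr5 did. With all 6 groups in 1 limma fit the adjusted p was 0.0533, and with RVM saline fitted alone it was 0.229.

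Outside RVM the Sstr5 values were few. In PAG they were 0.25, 0.49 and 0.45 on carrageenan arrays 1, 2 and 5, and -0.69 on the single measured saline array. There the carrageenan arrays lay above the saline array, opposite to RVM, but with 1 saline array no difference or interaction was tested. The PAG carrageenan mean of 0.39 ± 0.13 (SD, n = 3) had a 95% interval of -0.26 to 1.05 when that group was fitted alone by limma (adjusted p = 0.34). In the dorsal horn Sstr5 had 0.56 and 0.65 on left arrays 2 and 4 and 0.19 on right array 4. In order, its means were 1.06 in RVM saline, 0.60 in LDH left, 0.39 in PAG carrageenan, 0.19 in LDH right, -0.03 in RVM carrageenan and -0.69 in PAG saline. RVM saline overlapped LDH left, LDH left stood above PAG carrageenan, and the single LDH right array lay below PAG carrageenan and within the range of RVM carrageenan.

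**Figure D2:**
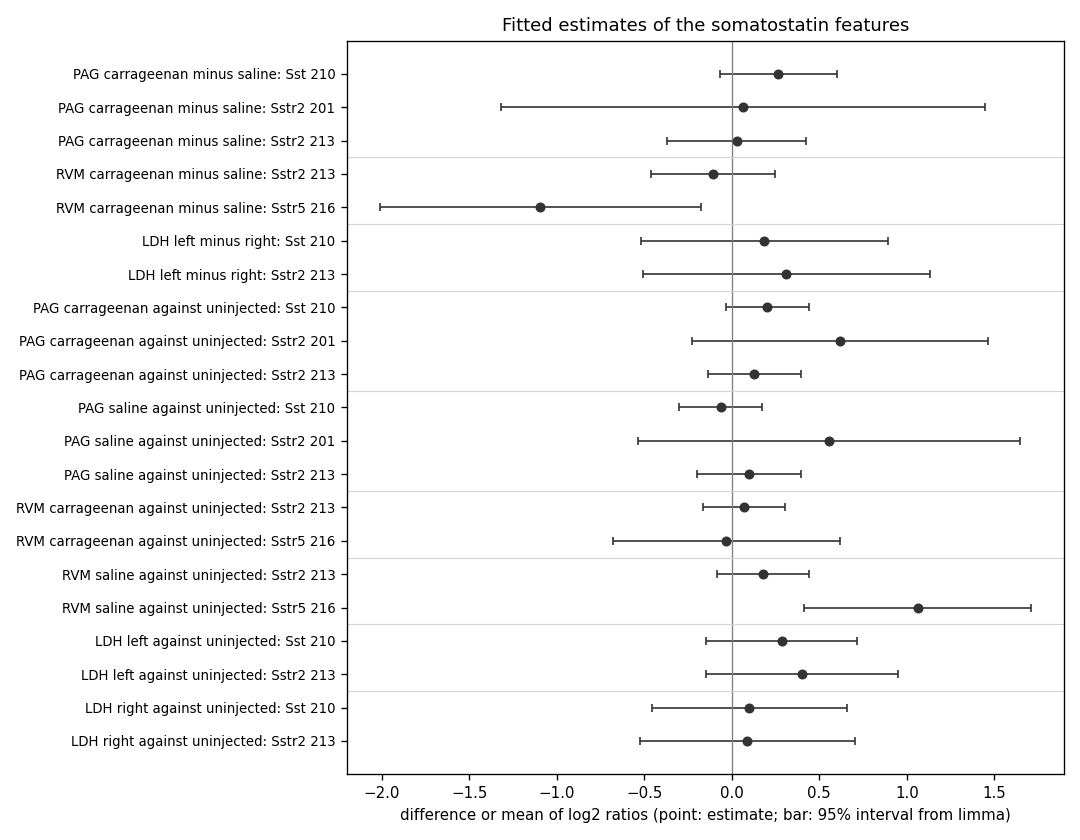
Estimates for the members that could be tested with at least 3 measured arrays in each group: the difference between groups (top 3 blocks) or the mean against uninjected controls (other blocks), on the log2 ratio scale, with 95% intervals from limma. The intervals of Sstr5 in RVM, at -1.10 for carrageenan minus saline and 1.06 for saline, leave out 0 before adjustment, and none of the others does.

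Sstr1 encodes a receptor that also serves as an autoreceptor on some somatostatin neurons. Its feature 1 had the lowest single ratio among the members, -5.23. It had -1.49, -5.23, -3.39 and 0.93 on PAG carrageenan arrays 1 to 4. It had -0.22 on RVM carrageenan array 3, -0.10 and -0.52 on RVM saline arrays 3 and 4, and -2.62 on LDH left array 2. It was below 0 on 7 of 8 arrays. The mean of -2.29 ± 2.64 in PAG carrageenan (SD, n = 4) had a 95% interval of -5.16 to 0.58 with that group fitted alone by limma (adjusted p = 0.273), where 0.645% of 155 features passed.

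Sstr1 feature 212 has the same accession in the annotation as feature 1 and gave other values. In PAG it had 0.36, -0.49, -0.41, -0.44 and 3.08 after carrageenan and 1.35 on the single measured saline array. In RVM it had -1.94 and 1.03 on carrageenan arrays 1 and 5, against -1.06, -0.69, -0.04 and -1.05 on saline arrays 1 to 4. The RVM saline values were all below 0. Of the 56 features with at least 3 measured arrays in both RVM groups, 37.5% had all their RVM saline arrays on 1 side of 0. The RVM saline mean of feature 212, -0.71 ± 0.48 (SD, n = 4), had a 95% interval of -1.35 to -0.07 with the group fitted alone by limma (unadjusted p = 0.0367, adjusted p = 0.229). In that fit 0.787% of 127 features passed. In the limma fit of both RVM groups with at least 2 measured arrays each, the interval of the same mean was -1.97 to 0.55 (unadjusted p = 0.211, adjusted p = 0.52). In LDH it had 0.66, -1.94 and 0.30 on left arrays 1, 2 and 5 and -4.18 on right array 4. Neither Sstr1 feature had enough arrays for a comparison between groups with at least 3 measured arrays each.

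Features of the same gene were then set against each other array by array. On the 7 arrays that measured both Sstr1 features, they had the same sign on 5, and differed by between 0.06 and 4.74 (median 1.37). On PAG carrageenan array 2 feature 1 read -5.23 and feature 212 read -0.49. The Sstr2 features shared 19 arrays, had the same sign on 13 and differed by a median of 0.33, with r = 0.24 (Spearman's rho 0.37). On PAG carrageenan array 5 feature 201 read 1.47 and feature 213 read 0.05. Over 40 pairs of features of 1 gene with at least 6 shared arrays, drawn from 19 genes of the array, the median r was 0.09 and 21 pairs were above 0. A ratio of 1 feature was therefore not taken as that of its gene. Sst and Sstr5 had 1 feature each, so their values stand for that feature only.

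**Figure D3:**
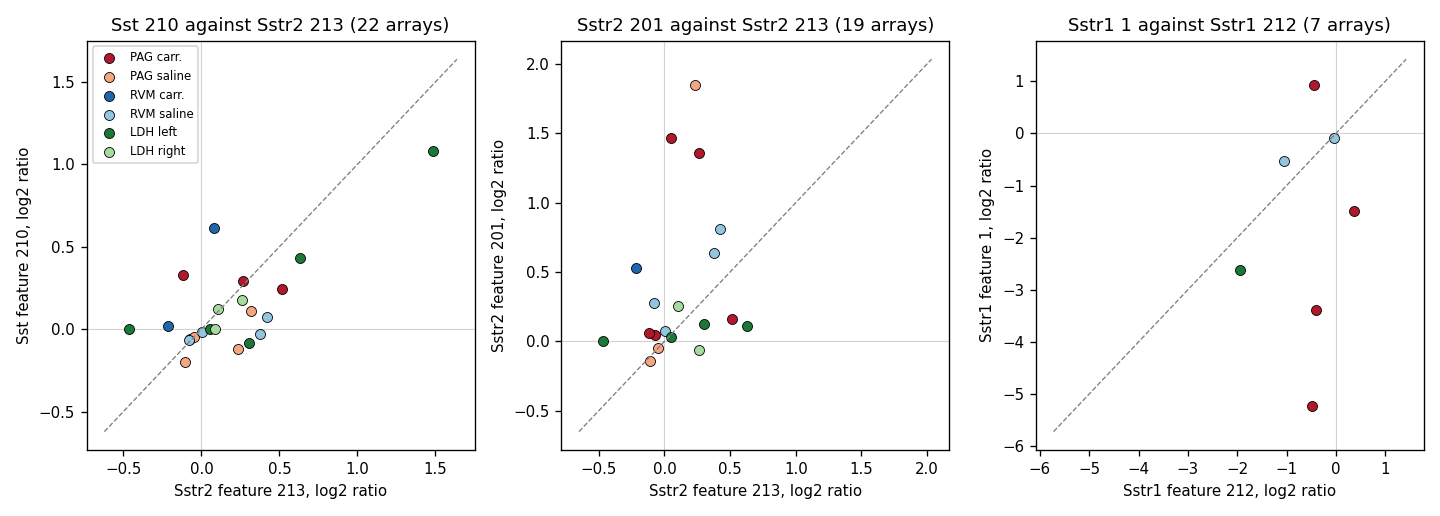
Log2 ratios of member pairs on the arrays that measured both (left, Sst against Sstr2 feature 213, 22 arrays; middle, the Sstr2 features, 19 arrays; right, the Sstr1 features, 7 arrays), with the line of equal values dashed. LDH left array 1 stands apart at the top right of the left panel, and the features of 1 gene scatter widely around the line.

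Sst and Sstr2 feature 213 had the highest Pearson's r of the member pairs with at least 12 shared arrays, but not the highest Spearman's rho. Over 22 arrays, which share the arrays' own width and dyes, r was 0.70 and rho 0.41. Without LDH left array 1 and RVM carrageenan array 3, the arrays farthest from the median of Sst, r was 0.45. Sst and Sstr1 feature 212 had r = 0.40 and rho = 0.55 over 14 arrays, with r = 0.21 without the 2 farthest. Sstr1 feature 212 and Sstr2 feature 213 had r = 0.28 and rho = 0.44 over 16 arrays, with r = 0.51 without the 2 farthest. With each group's mean taken off, and LDH left array 1 kept, r was 0.80, 0.76 and 0.48 for these pairs in the same order. Over only 7 arrays, Sstr1 feature 1 and Sstr2 feature 201 had r = 0.72 and rho = 0.89. The features whose pattern was most like that of Sst were Adrb3 feature 42 (r = 0.79 over 20 arrays), Adra2c feature 31 (r = 0.71 over 22) and Il10 feature 137 (r = 0.71 over 17). Adrb3 and Adra2c encode adrenergic receptors and Il10 a cytokine. The same 3 features led for Sstr2 feature 213, with r between 0.72 and 0.75. Without the 2 arrays farthest from the median, these values were 0.05, 0.43 and 0.44 for Sst, and between 0.20 and 0.40 for Sstr2. LDH left array 1 was among the arrays left out in each of these.

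The other members had their own neighbours. Sstr5 was most like Tac1 feature 55, the substance P precursor (r = 0.64), Tacr2 feature 219, a tachykinin receptor (r = 0.58), and Gabrd feature 73, a GABA-A receptor subunit (r = 0.52), each over 12 arrays. Without RVM saline array 1 and PAG saline array 1 these were 0.47, 0.19 and -0.05. Sstr1 feature 212 was most like Adora2a feature 23 (r = 0.72), Il13ra2 feature 97 (r = 0.68) and the unnamed feature 62 (r = 0.61). Without the 2 farthest arrays these were 0.25, 0.77 and 0.16. Sstr2 feature 201 was most like the unnamed feature 50 (r = 0.74), Il10 feature 137 (r = 0.70) and the unnamed feature 199 (r = 0.61). Without the 2 farthest arrays these were 0.44, -0.31 and 0.63. Between 51 and 103 features were compared for each member, and the highest of so many values is given as a description.

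Beside the members, the lists of related genes gave no calls between injected groups. Against uninjected controls in PAG carrageenan, 2 of 9 features of other neuropeptide precursors passed by limma, the dynorphin precursor Pdyn (0.97, adjusted p = 0.0224) and Nts, the neurotensin precursor (0.57, adjusted p = 0.0227). The serotonin transporter gene Slc6a4 also passed there (0.88, adjusted p = 0.0224 by limma), against 14.1% of all features. After saline the same Pdyn, Nts and Slc6a4 features averaged 0.49, 0.29 and 0.48 in PAG (adjusted p = 0.383 each by limma). In PAG, 7 of 9 features of other neuropeptide precursors were higher after carrageenan (median difference 0.49), against a median of 0.14 over all 78 features. Tac1 feature 55, with 0.75 (95% interval 0.05 to 1.45), and Pdyn with 0.49 (95% interval -0.13 to 1.11), had the smallest p among them. In RVM 5 of 6 precursor features were lower after carrageenan (median -0.67), where 37.5% of all 56 features were higher (median -0.10). These 6 were Tac1 features 55 and 79, Penk features 194 and 196, Nts and Calca. The Penk features went opposite ways (-0.53 and 0.46). Tac1 feature 55 differed by -1.28 in RVM (95% interval -2.59 to 0.02, adjusted p = 0.465 by limma). Gad2, an enzyme of GABA synthesis that many somatostatin neurons carry, differed by -0.09 in PAG (95% interval -0.43 to 0.26) and by -0.02 in RVM (95% interval -1.38 to 1.34). Of the 3 members tested in PAG 3 were higher after carrageenan (median 0.06), as were 46 of all 78 features (median 0.14). Both Sstr2 features turned to below 0 there with quantile normalization (-1.08 and -0.06). Of the 2 in RVM 0 were higher (median -0.60), where 21 of all 56 features were higher (median -0.10). Sstr2 feature 213 turned to 0.16 there with quantile normalization. Of the 2 in LDH 2 were higher on the left (median 0.25), as were 17 of all 29 features (median 0.18). The members tested were too few for these counts to say whether they went with or against the other features. In each of these comparisons 0 members passed, against a background of 0%.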

How the data were processed

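Per the labels' protocols, RNA came from a TRIzol extraction, with 5 µg per sample used for reverse transcription. Each channel was bound to its own Alexa dye (647 for injected, 546 for uninjected), never swapped, so dye and injection cannot be told apart against the uninjected controls. The authors deposited 1 log2 ratio per feature and array. Its log base was inferred from the range of -13.245 to 10.459. The sources used here do not give the spot filter or the normalization. Of 348 array pairs with at least 15 shared features, r was above 0 in 311, with a median of 0.27 over all pairs. It was below -0.3 in 7 (lowest -0.51), and the direction was kept since the labelled dyes never change.

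Features were named from the platform annotation through a RefSeq gene table (GRCr8), in which 191 of 202 named features matched. Each comparison was fitted as in limma's lmFit and eBayes (version 3.58.1, R 4.3.3, two-sided), with at least 3 measured arrays in every group of the fit, and checked against limma and on simulated data. Group means against 0 used the fit of their region. P-values were adjusted by Benjamini-Hochberg over all features within each of 12 comparisons at 0.05. Single members were tested by exact permutation. All 6 members are described, with the 3 most similar features of each and the list features with the smallest p. The members and lists were chosen with earlier results of these data known. Alternatives were median centring, quantile normalization, zeros kept as 0, at least 2 measured arrays, all groups in 1 fit, the group alone, the replicate number as a block and leaving out each array. Leaving out the 4 arrays with fewer than 40 measured features was added after seeing the data.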

Additional observations from a re-analysis of the deposited data

Results flagged for a closer look

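On PAG carrageenan array 5, Sstr1 feature 212 had a ratio of 3.08 (3.075 as deposited), far from the other 4 arrays of the group, which ran from -0.49 to 0.36. The gap to the nearest of them was 0.76 of the group's range. Without it the group mean was -0.24 ± 0.41 (SD, n = 4), against 0.42 ± 1.53 with it. That array measured 86 features, the fewest of its group, and did not measure Sst or Sstr1 feature 1. Of 16 combinations of member and group tested for such a gap 1 was flagged, and the 95% critical value behind it is set so that chance flags about 1 group in 20.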

How the results depend on the processing

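Under every alternative run, 0 members passed in each of the 12 comparisons, and the lowest adjusted p of a member by limma was 0.0533. Of 24 member results 17 kept their direction throughout, the Sst difference in PAG (0.21 to 0.35) and the Sstr5 difference in RVM (-1.10 to -0.82) among them. For Sstr5 no fit without one of its 6 measured RVM arrays was possible, since fewer than 3 would be left in a group. Quantile normalization turned the sign of Sstr2 in PAG (feature 201 -1.08, feature 213 -0.055), of feature 213 in RVM (0.16), between regions after carrageenan (-0.13) and saline (0.080), and in the interaction (-0.21). Median centring gave -0.016 for feature 213 in PAG. Leaving out single arrays gave -0.15 to 0.21 for feature 201 and -0.070 to 0.10 for feature 213 in PAG, -0.014 to 0.28 for Sst between the sides of LDH, and -0.16 to 0.0025 and -0.041 to 0.12 for feature 213 between regions after saline and carrageenan. The cause was not tested. With the replicate number as a block, Sstr2 feature 201 in PAG was -0.029 and Sst between the sides of LDH was -0.13, Sstr5 in RVM was -0.90 (adjusted p = 0.676), and no call of a member changed. The labels state no pairing, and same-numbered arrays deviated together with r from -0.33 to 0.37 in PAG, -0.06 to 0.23 in RVM and -0.27 to -0.04 in LDH, not always highest for the own number. Over all features, the 11 called in PAG carrageenan became 7 in a fit of all groups, 4 with the block, 1 with the group alone, 0 with quantile normalization, and 1 to 9 without single arrays. The 3 in RVM saline became 9 with zeros kept, 1 with quantile normalization or the group alone, and 0 with all groups in 1 fit or the block, and ran from 0 to 9 without single arrays. The 1 in RVM carrageenan became 0 with zeros kept, all groups, the block or the group alone. PAG saline, with 0, had 4 with quantile normalization. Keeping zeros gave 1 call in place of 0 in PAG carrageenan minus saline, 4 in RVM, 4 and 1 between regions after saline and carrageenan, and 6 in the interaction. The number of measured arrays limits each estimate.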

Other observations

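Related receptors outside the 4 genes were looked at after their values were seen. Sstr3 feature 202 was measured on all 28 arrays with a median size of 0.07, and differed by -0.20 between carrageenan and saline in PAG (95% interval -1.20 to 0.80 by limma), by -0.08 in RVM (95% interval -0.35 to 0.20) and by -0.06 between left and right LDH (95% interval -0.40 to 0.28). Sstr4 feature 215 had -2.14 and -1.12 on the measured RVM carrageenan arrays and 0.74, 3.62 and 0.22 on RVM saline arrays 2 to 4. It was not in the main fit, since fewer than 3 RVM carrageenan arrays measured it, and its estimate with at least 2 measured arrays is not given here. A feature that the annotation calls only SSTR, 214, ran from -0.01 to 0.15 on the 5 PAG carrageenan arrays and from -0.22 to -0.03 on the 4 measured PAG saline arrays, without overlap, as 3.85% of features in that comparison did. Its difference was 0.20 by limma (95% interval -0.03 to 0.44, adjusted p = 0.432).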
